A study of Homo sapiens with 6 samples.

Results

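The 10 genes described here belong to the NF-kB pathway: the 5 subunit genes RELA, RELB, REL, NFKB1 and NFKB2, the 2 inhibitor genes NFKBIA and TNFAIP3, and the 3 target genes BIRC3, ICAM1 and CCL2. They were found by gene name among the 14034 rows of a deposited count table, and all 10 had a row. The filter on low counts removed no row of that table, so passing it says nothing particular about these genes. Of the 10 genes, 7 were chosen by their known place in the pathway, and 3 were picked on measured values: CCL2 for its large fall, set against the rise of RELB and NFKB2. The values of those 3 genes are therefore given as a description with no test. The cells were JHH-4, an established human hepatocellular carcinoma line with an epithelial-like form. In 3 control libraries, which the labels call wild type, nothing further is given about what the cells received. In 3 other libraries the cells overexpressed the microRNA miR-885-5p from a plasmid that carried its primary transcript. No dose or time after delivery is stated, and plasmid effects cannot be told apart from those of the microRNA. Libraries within a group are technical replicates according to the submitters, so p-values cover only the spread between such libraries.

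NF-kB is a family of dimeric transcription factors that control inflammatory, survival and immune genes, in liver cells as elsewhere. In the canonical arm, inhibitor proteins such as the product of NFKBIA hold dimers of RELA and the NFKB1 product in the cytoplasm until a kinase complex marks the inhibitor for degradation. In the alternative arm, the kinase encoded by MAP3K14 triggers processing of the NFKB2 precursor, which then enters the nucleus with RELB. Many genes of the pathway are themselves NF-kB targets, which gives it several feedback loops.

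The overexpressed microRNA is shown first, because its seed is the stretch that mainly pairs with target messages. The mature strand lies at chr3:10394531-10394552 on the minus strand (RefSeq, GRCh38.p14), and capitals mark the seed, bases 2 to 8.
miR-885-5p: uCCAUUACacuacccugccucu
With the longest 3' UTR taken per gene, 2 of the 10 genes held the complement of the whole seed, GTAATGG, against 8.01% of the 12308 genes with a 3' UTR. These were REL and ICAM1, and neither site was followed by the A that would make it an 8mer. The pair is printed from GENCODE 29 transcripts (GRCh38, plus strand) with the matching bases in capitals.
REL, in a UTR of 9075 bases, chr2:60923128-60923156: agataaaacttGTAATGGctatgccattg
ICAM1, in a UTR of 1328 bases, chr19:10286030-10286058: tatatggactgGTAATGGttacaggttca
TNFAIP3 and BIRC3 held only the shorter match TAATGG, and any of the 4 site types searched (the 8mer, 2 kinds of 7mer and the 6mer) was found in 4 of the 10 genes and in 30.4% of all. The UTRs of RELA, RELB, NFKB1, NFKB2, NFKBIA and CCL2 held none of these letters. That of CCL2 was 473 bases long, against a median of 1390 bases.

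Total counts ran from 46382314 to 56409821 per library, and the first principal component of log2 CPM (counts scaled to library size) separated the groups. Of 14 hepatocyte and hepatoma markers 6 were tested, among them the keratins KRT8 and KRT18 and the factors FOXA1 and FOXA2, while ALB, AFP and HNF4A were not analysed here. Of these 6 markers none rose and 3 fell, and their summed level ran from 1151 to 1243 FPKM in control and from 1023 to 1066 FPKM with miR-885-5p (the authors' per-length unit, fragments scaled by transcript length and library size). Of 15 leukocyte markers 3 were tested (CSF1R, CD14 and CD68), with PTPRC and CD3E not analysed here. CSF1R rose (log2 fold change 0.44), CD14 fell (-0.83) and CD68 did not pass (-0.03). Their summed level, nearly all of it CD68, was 59.0 to 67.6 FPKM in control and 64.8 to 66.1 FPKM with miR-885-5p. Whether these marker levels have a part in the values below was not tested.

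RELB and NFKB2, which encode the partners of the alternative arm, were higher in the cells with miR-885-5p. RELB (ENSG00000104856, chr19:45001430-45038198, plus strand, GRCh38) stood at 9.54, 8.46 and 7.53 CPM in control libraries 1 to 3, after scaling by the TMM method. It stood at 18.4, 19.9 and 16.9 CPM in miR-885-5p libraries 1 to 3. All 3 libraries with the microRNA lay well above all 3 controls. The means were 8.51 ± 1.01 and 18.4 ± 1.50 CPM (SD, n = 3 each), a log2 fold change of 1.11 (SE 0.10) or 2.16-fold. NFKB2 (ENSG00000077150, chr10:102394110-102402529, plus strand) encodes the precursor p100 and its product p52. Its level was 63.3, 62.5 and 69.0 CPM in the controls and 114, 119 and 119 CPM with miR-885-5p. The groups were again apart, with means of 64.9 ± 3.57 and 118 ± 2.80 CPM, a log2 fold change of 0.86 (SE 0.05) or 1.81-fold. In order of rise over all rows, RELB was number 355 and NFKB2 number 631.

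The 3 other subunit genes did not move past the spread between libraries. RELA (chr11:65653596-65663094, minus strand), which encodes the main transactivating subunit p65, was at 91.3, 92.5 and 80.9 CPM in control and 84.7, 84.6 and 83.5 CPM with miR-885-5p. The miR-885-5p values fell inside the control range. Its log2 fold change was -0.07 (SE 0.05, 95% interval -0.19 to 0.05, adjusted p = 0.323 in edgeR's quasi-likelihood test with Benjamini-Hochberg adjustment over all rows). Without control library 3 RELA was lower by a log2 fold change of -0.12 and passed the threshold (adjusted p = 0.0198 in edgeR). NFKB1 (chr4:102501329-102617302, plus strand), which encodes p105 and p50, was at 24.1, 27.9 and 27.4 CPM in control and 24.1, 25.9 and 26.0 CPM with miR-885-5p. Those ranges overlap, and the log2 fold change was -0.06 (SE 0.07, 95% interval -0.22 to 0.10, adjusted p = 0.491 in edgeR). REL (chr2:60881521-60931610, plus strand), the gene of the c-Rel subunit best known from lymphocytes, was at 8.99, 11.8 and 7.86 CPM in control and 8.46, 8.54 and 8.33 CPM with miR-885-5p. Its controls were the most scattered of the subunits for their mean, and its 95% interval, -0.49 to 0.13 around a log2 fold change of -0.18, is the widest of the 6 genes that did not pass (adjusted p = 0.308 in edgeR). Single controls moved that value, to 0.00 without control library 2 and to -0.30 without control library 3, and it did not pass in either case (adjusted p = 0.980 and 0.0611 in edgeR). REL is also one of the 2 genes with the 7-base site printed above.

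**Figure D1:**
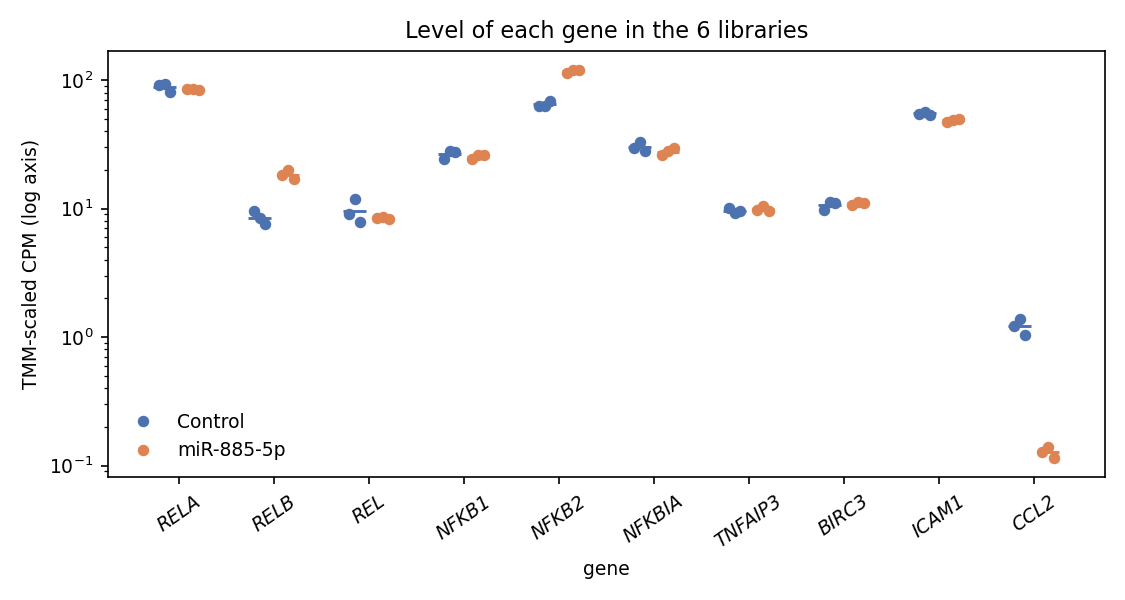
Level of each gene (TMM-scaled CPM, log axis) in the 3 control and 3 miR-885-5p libraries, one point per library and a bar at the group mean. RELB and NFKB2 are apart upward and CCL2 is apart downward, at 1.21 CPM in control and 0.127 CPM with miR-885-5p, while RELA, REL, NFKB1, NFKBIA, TNFAIP3 and BIRC3 overlap.

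Levels of different genes were compared only on the authors' FPKM scale, which divides by transcript length. In control cells the order of mean FPKM was RELA at 28.2 ± 1.55, NFKB2 at 19.0 ± 1.07, NFKBIA at 17.6 ± 1.36, ICAM1 at 15.2 ± 0.296, NFKB1 at 6.17 ± 0.476, RELB at 3.44 ± 0.395, TNFAIP3 at 2.06 ± 0.196, BIRC3 at 1.88 ± 0.156, CCL2 at 1.44 ± 0.189 and REL at 0.762 ± 0.153 (SD, n = 3). Single libraries of NFKB2 and NFKBIA overlapped in FPKM, as did those of TNFAIP3 and BIRC3, so these neighbours are not ordered beyond their spread. With miR-885-5p NFKB2 came first at 35.8 ± 1.85 FPKM, ahead of RELA at 28.0 ± 0.641, and RELB at 7.77 ± 0.749 passed NFKB1 at 6.07 ± 0.345. The summed level of the 5 subunit genes was 57.4, 58.4 and 56.8 FPKM in control and 75.6, 81.1 and 78.2 FPKM with miR-885-5p. RELB and NFKB2 together made up 39.4, 36.7 and 40.9% of that sum in control and 54.7, 56.0 and 56.1% with miR-885-5p. Among the 3 Rel genes the RELB share was 10.6 ± 0.950% in control and 21.3 ± 1.23% with miR-885-5p, and between NFKB1 and NFKB2 the NFKB2 share was 75.5 ± 1.66% and 85.5 ± 0.0880%. These shares rest on genes picked for their rise and describe message, not protein.

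**Figure D2:**
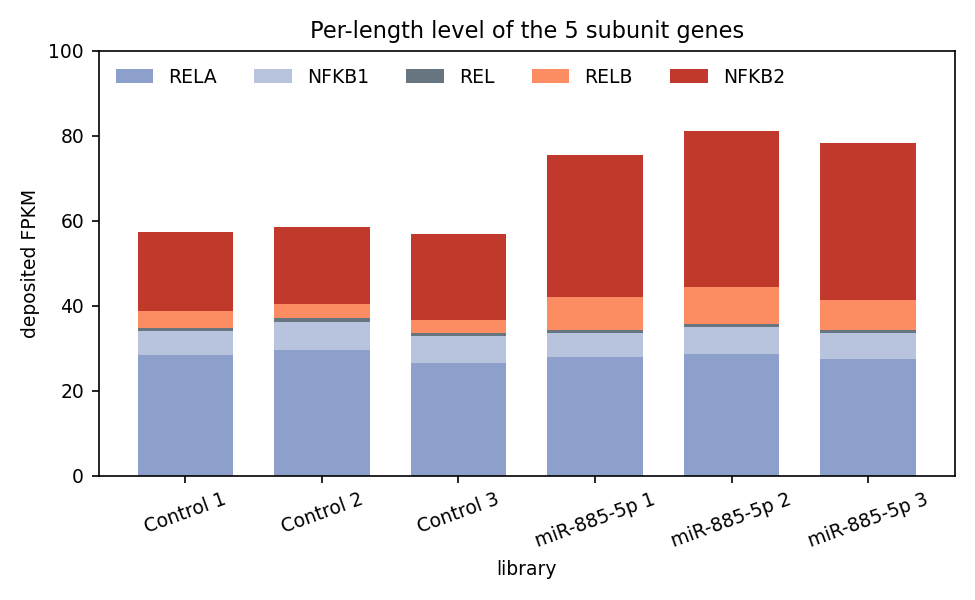
Deposited FPKM of the 5 subunit genes, stacked, in each library. The column height goes from 56.8 to 58.4 FPKM in control and from 75.6 to 81.1 FPKM with miR-885-5p, and the RELB and NFKB2 segments are taller there than in control.

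The 2 inhibitor genes did not pass the threshold. NFKBIA (chr14:35401511-35404749, minus strand) encodes I-kappa-B alpha, which binds NF-kB dimers and is resynthesised when they are active. It was at 29.5, 33.2 and 28.2 CPM in control and 26.1, 27.8 and 29.4 CPM with miR-885-5p. The ranges overlap, and the log2 fold change was -0.13 (SE 0.07, 95% interval -0.29 to 0.04, adjusted p = 0.179 in edgeR). TNFAIP3 (chr6:137867188-137883312, plus strand) encodes a ubiquitin-editing enzyme that switches off signalling to NF-kB. It was at 10.1, 9.27 and 9.52 CPM in control and 9.80, 10.4 and 9.54 CPM with miR-885-5p, again overlapping. Its log2 fold change was 0.04 (SE 0.08, 95% interval -0.15 to 0.23, adjusted p = 0.688 in edgeR). On the FPKM scale the ratio of NFKBIA to RELA was 0.600, 0.646 and 0.623 in control and 0.562, 0.593 and 0.640 with miR-885-5p, so the groups overlap there too.

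Of the 3 target genes, BIRC3 did not pass the threshold, ICAM1 fell slightly and CCL2, picked for its fall, was far lower. BIRC3 (chr11:102317450-102339403, plus strand), an inhibitor-of-apoptosis gene that is also a ubiquitin ligase in the pathway, was at 9.69, 11.3 and 11.0 CPM in control and 10.7, 11.2 and 11.0 CPM with miR-885-5p. These values overlap, with a log2 fold change of 0.04 (SE 0.09, 95% interval -0.15 to 0.24, adjusted p = 0.715 in edgeR), and of -0.02 without control library 1. ICAM1 (ENSG00000090339, chr19:10270835-10286615, plus strand), an adhesion molecule that binds leukocyte integrins, was at 54.1, 56.9 and 53.8 CPM in control. With miR-885-5p it was at 46.8, 49.1 and 50.1 CPM, and no library of one group reached the range of the other. It fell by 0.17 on the log2 scale (SE 0.05, adjusted p = 0.0138 in edgeR), a smaller step than the 0.24 that is the median size of change over all rows. Without miR-885-5p library 1 the log2 fold change of ICAM1 was -0.14 and no longer passed (adjusted p = 0.0627 in edgeR). Noncoding genes of the annotation overlap RELA, REL, TNFAIP3 and ICAM1, none of them tested here. The labels do not say that the libraries kept strand, so reads of such partners cannot be told apart.

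CCL2 (ENSG00000108691, chr17:34255218-34257203, plus strand) encodes a chemokine that attracts monocytes and is a standard readout of NF-kB activity in many cells. It had 58, 65 and 51 counts in control libraries 1 to 3 and 6, 8 and 6 counts in miR-885-5p libraries 1 to 3. In CPM these are 1.22, 1.38 and 1.04 against 0.127, 0.139 and 0.115. Every control library lies far above every miR-885-5p library. The means were 1.21 ± 0.172 and 0.127 ± 0.0121 CPM, a log2 fold change of -3.22 (SE 0.30), or 9.35-fold lower. Only 3 of the 14034 rows fell further, 2 of them with a gene name. A filter at 1 CPM in 3 libraries left the fit unchanged, and CCL2 reached 1 CPM in its control libraries only. Its row passes such a filter only through the group where it is high, so nothing is read from this rank. CCL2 was a weak gene throughout: on the FPKM scale 18.7% of rows were lower in control, where it stood at 1.44 FPKM. By counts, which are not divided by length, none of the 14034 rows had a smaller sum over the libraries than CCL2, at 194. In bulk RNA, fewer cells that make CCL2 and less CCL2 message per cell cannot be told apart.

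**Figure D3:**
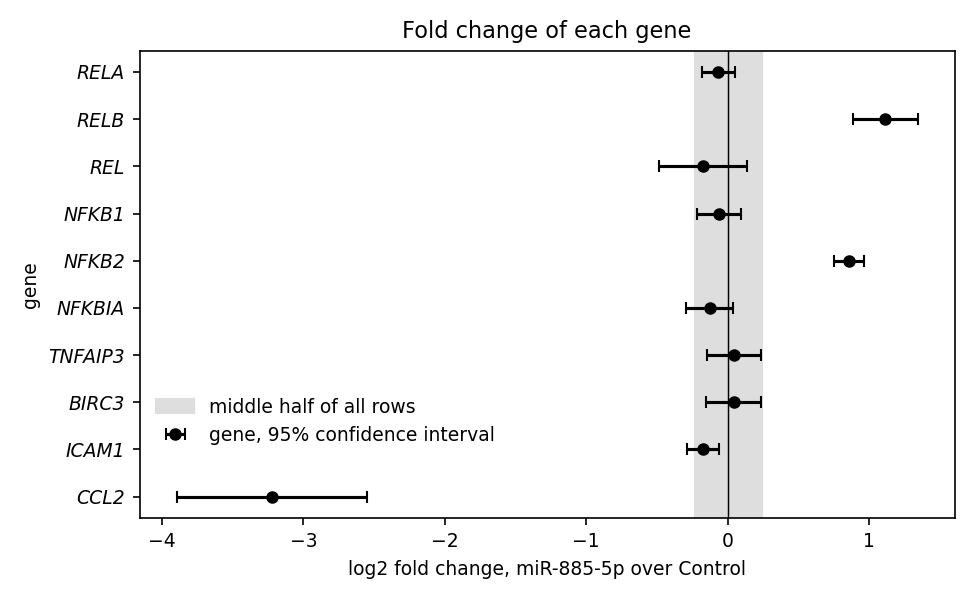
Log2 fold change of each gene (miR-885-5p over control) with its 95% confidence interval; the grey band runs from the lower to the upper quartile of all rows, -0.23 to 0.24. RELB, NFKB2 and CCL2 were picked for their change, so their place outside the band is a description only; of the 7 other genes, 6 have intervals that include 0.

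Of the 7 genes chosen by place in the pathway, ICAM1 alone passed an adjusted p of 0.05 in edgeR, downward. Over all rows 52.9% passed, 26.3% upward and 26.5% downward. The groups did not overlap for 4 of the 10 genes, RELB, NFKB2, ICAM1 and CCL2, and for 60.5% of all rows. Since 3 of those 4 were picked for their change, nothing is read from that count. The median log2 fold change of those 7 was -0.07, against 0.00 for all rows. In the authors' deposited table the log2 fold changes were 1.11 for RELB, 0.86 for NFKB2, -3.25 for CCL2 and -0.17 for ICAM1. The deposited p of ICAM1 was 0.00410, from a test that is not named and with no label as adjusted. For all 10 genes the deposited log2 fold changes equal those of the DESeq2 alternative listed below, so they are no separate check.

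The promoter windows of the genes were read for the 10-base kappaB consensus, the motif that NF-kB dimers bind, since several of these genes are known to be their own targets. RefSeq windows (GRCh38.p14), from 250 bases before to 50 bases after each annotated start, were held for 8 of the 10 genes, all but RELB and CCL2. On either strand 6 of the 8 genes had a match in at least 1 window, NFKB1, NFKB2, REL, NFKBIA, TNFAIP3 and BIRC3, while ICAM1 and RELA had none. The search allowed no mismatch, and the ICAM1 window holds tggaaattcc, which departs from the consensus in its first base only. Of the 9881 tested gene names with a window 9.02% had a match, and 7 of the 12 windows of the 8 genes held one against 6.73% of 14546 windows. Each match is printed with 10 bases on both sides, along the gene's strand, with the motif in capitals; of matches that overlap by all or most of their bases 1 is shown.
NFKB2, 107 bases before the start, chr10:102394461-102394490: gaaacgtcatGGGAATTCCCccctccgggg
NFKB2, 78 bases before the start, chr10:102394490-102394519: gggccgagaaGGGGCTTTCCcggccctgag
NFKB2, 176 bases before the start, chr10:102395519-102395548: aacccccaccGGGGCTTCCCggattctcct
NFKB2, 21 bases before the start, chr10:102395674-102395703: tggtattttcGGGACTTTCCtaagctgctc
NFKB1, 49 bases before the start, chr4:102501300-102501329: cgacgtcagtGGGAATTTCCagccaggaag
REL, 47 bases before the start, chr2:60881517-60881546: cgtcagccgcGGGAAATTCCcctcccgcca
NFKBIA, 81 bases before the start, chr14:35404811-35404840: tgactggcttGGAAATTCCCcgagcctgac
TNFAIP3, 67 bases before the start, chr6:137867182-137867211: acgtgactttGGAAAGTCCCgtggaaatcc
TNFAIP3, 55 bases before the start, chr6:137867194-137867223: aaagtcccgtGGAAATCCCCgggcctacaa
BIRC3, 199 bases before the start, chr11:102317275-102317304: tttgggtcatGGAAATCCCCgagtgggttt
BIRC3, 135 bases before the start, chr11:102317339-102317368: tattaccgctGGAGTTCCCCtaagtcctaa
NFKB2 carried the most matches, in 2 of its 3 windows, but it also had the most windows searched of the 8 genes. The window with 2 separate matches upstream of the middle start is printed whole, with matched bases in capitals, where 2 overlapping matches run together.
NFKB2, chr10:102394328-102394627, plus strand: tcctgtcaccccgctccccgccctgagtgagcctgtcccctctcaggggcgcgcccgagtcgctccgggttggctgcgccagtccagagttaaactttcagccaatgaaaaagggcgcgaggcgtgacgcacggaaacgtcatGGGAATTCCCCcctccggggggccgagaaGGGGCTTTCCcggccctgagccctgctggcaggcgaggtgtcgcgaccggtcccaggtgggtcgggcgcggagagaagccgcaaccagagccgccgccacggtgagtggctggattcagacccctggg
A match describes letters and not binding. The 6 genes with a match had log2 fold changes from -0.18 for REL to 0.86 for NFKB2, and the 5 apart from NFKB2 did not pass the threshold. Over all 893 rows with a match in a window, 28.4% rose and 26.1% fell (median log2 fold change 0.00), and over 8992 rows without one 27.3% rose and 28.5% fell (median 0.00).

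**Figure D4:**
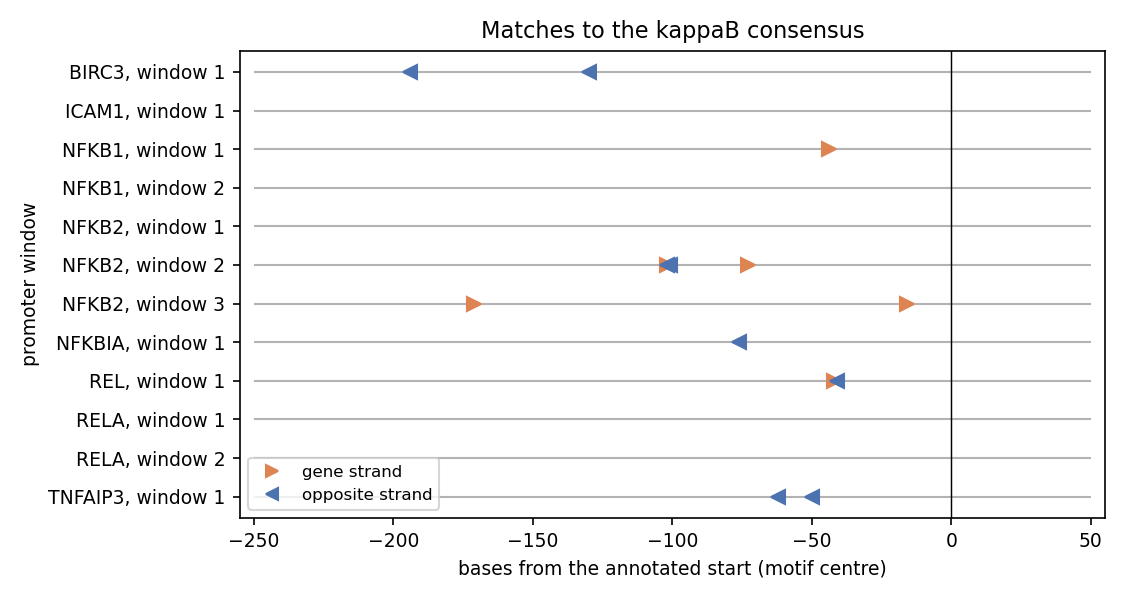
Matches to the kappaB consensus in the 12 promoter windows of 8 genes, by distance of the motif's centre from the annotated start in bases; arrowheads give the strand. Matches are seen in 7 windows, with first bases from 199 to 21 before the start, and NFKB2 has them in 2 of its 3 windows.

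Genes that act before the subunits were read next. Beside the list counts here and below, 26.3% of all rows rose and 26.5% fell. The lists were chosen with earlier results of these data known. Of 18 receptors that feed NF-kB, 13 were tested: 8 fell, 2 rose and 3 did not pass, with a median log2 fold change of -0.16. IL1R1, the signalling receptor of interleukin-1, fell from 32.8 ± 3.78 CPM in control to 15.5 ± 0.552 CPM (log2 fold change -1.08, SE 0.09, adjusted p = 6.44e-06 in edgeR). TNFRSF11A, which encodes RANK, a receptor that signals to both arms, fell from 11.0 ± 1.09 CPM in control to 4.20 ± 0.861 CPM (log2 fold change -1.39, SE 0.15). The TNF receptor gene TNFRSF1A fell from 157 ± 6.02 to 120 ± 3.90 CPM, and TNFRSF12A, the receptor of the ligand TWEAK, rose from 290 ± 4.32 to 359 ± 6.37 CPM. LTBR, the lymphotoxin beta receptor, a classical trigger of the alternative arm, did not pass at a log2 fold change of -0.08 (SE 0.05 with adjusted p = 0.209 in edgeR). LTBR was named after its value was seen. The count of receptors that fell was 5 without miR-885-5p library 2 or without library 3, and the count that rose was 1 when control library 1, miR-885-5p library 1 or miR-885-5p library 3 was left out.

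All 30 listed adaptors, kinases and ubiquitin ligases were tested: 6 rose, 4 fell and 20 did not pass, with a median log2 fold change of 0.01. MAP3K14, the kinase that starts processing of the NFKB2 precursor, fell from 106 ± 2.16 CPM in control to 80.9 ± 2.19 CPM (log2 fold change -0.38, SE 0.04, adjusted p = 3.39e-05 in edgeR). TRAF2, an adaptor that helps keep that kinase low in resting cells, fell from 43.4 ± 0.455 CPM in control to 32.4 ± 2.73 CPM (log2 fold change -0.42). RBCK1, a subunit of the linear ubiquitin ligase, rose from 542 ± 2.18 to 722 ± 18.4 CPM, and the kinase gene IKBKE rose from 11.9 ± 1.39 to 17.9 ± 0.657 CPM. Of the 3 genes of the central kinase complex, named after their values were seen, CHUK rose by a log2 fold change of 0.21 (adjusted p = 0.0165 in edgeR), whereas IKBKB at -0.07 and IKBKG at -0.09 did not pass.

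Among 19 tested genes of other inhibitors and feedback regulators, 5 rose and 5 fell, with a median log2 fold change of 0.01. NFKBIZ, an atypical nuclear inhibitor and co-activator, fell from 102 ± 4.24 CPM in control to 68.2 ± 1.73 CPM (log2 fold change -0.59, SE 0.04, adjusted p = 5.03e-06 in edgeR). NFKBIB, the I-kappa-B beta gene and a paralogue of NFKBIA, fell from 68.2 ± 1.38 CPM in control to 47.9 ± 0.884 CPM (log2 fold change -0.51). NFKBIL1, which has similarity to the I-kappa-B family, rose from 18.3 ± 0.943 to 30.0 ± 0.925 CPM, and TAX1BP1, an adaptor of the TNFAIP3 protein, rose from 138 ± 5.95 to 177 ± 4.41 CPM.

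Of 51 other genes known as NF-kB targets 39 were tested: 18 fell, 9 rose and 12 did not pass, with a median log2 fold change of -0.10. LAMB3, which encodes a laminin chain of the basement membrane, rose from 11.4 ± 0.592 CPM in control to 30.7 ± 0.738 CPM (log2 fold change 1.43, SE 0.07). The transcription factor gene IRF1 fell from 63.8 ± 1.96 CPM in control to 31.4 ± 1.34 CPM (log2 fold change -1.02), and the apoptosis regulator gene TNFAIP8 from 20.4 ± 0.510 CPM in control to 9.55 ± 0.639 CPM (log2 fold change -1.09). The adjusted p in edgeR was 2.33e-07 for LAMB3, 4.18e-07 for IRF1 and 2.71e-06 for TNFAIP8.

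CCL2 was the only CCL gene tested, and 9 of the 37 other chemokine genes on the list were tested beside it. Of these 9 genes 4 fell, 1 rose and 4 did not pass, with a median log2 fold change of -0.19; 5 of the 9 are also on the list of targets. Without control library 1, 2 of the 9 rose. CXCL14 had the lowest value and fell from 1.85 ± 0.178 CPM in control to 0.546 ± 0.131 CPM (log2 fold change -1.75, SE 0.25, adjusted p = 2.45e-04 in edgeR). Like CCL2, it reached 1 CPM in its control libraries only, so nothing is read from its place as lowest. The neutrophil attractant gene CXCL6 fell from 3.95 ± 0.360 to 2.41 ± 0.213 CPM and CXCL16, a membrane-bound chemokine, from 5.22 ± 0.742 to 3.10 ± 0.640 CPM. CX3CL1, the other membrane-bound chemokine, rose from 6.45 ± 0.382 to 8.80 ± 0.333 CPM. CXCL8, a target often read beside CCL2 and named after its value was seen, did not pass at a log2 fold change of 0.57 (SE 0.37 with adjusted p = 0.218 in edgeR).

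**Figure D5:**
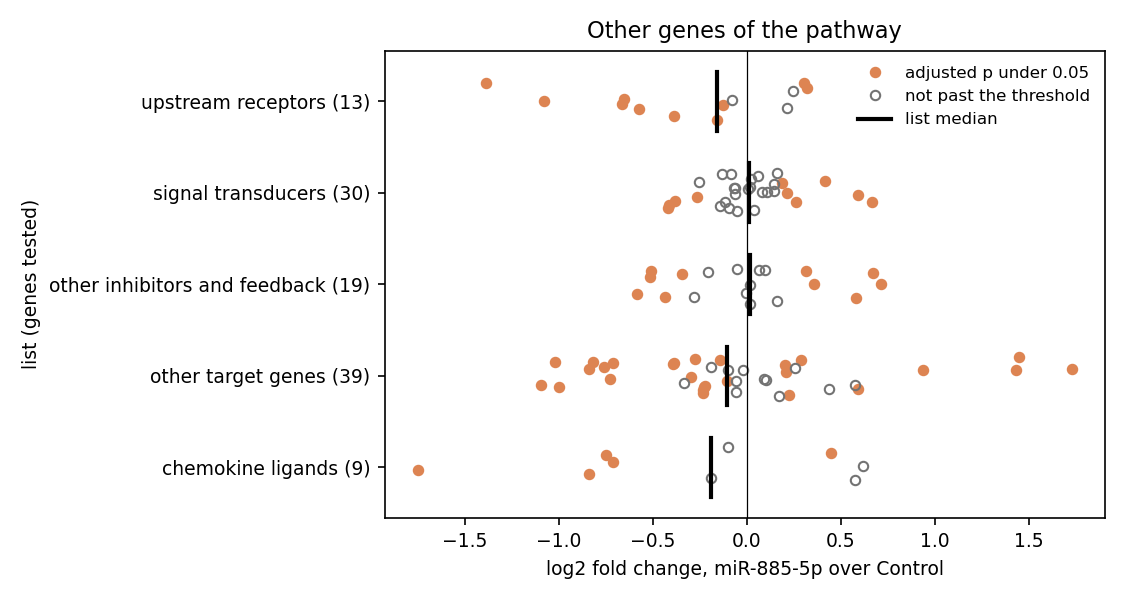
Log2 fold change (miR-885-5p over control) of each tested gene of 5 lists of the pathway, without the 10 genes themselves; filled points passed an adjusted p of 0.05, open points did not, and bars mark list medians. The medians lie between -0.19 and 0.01, and the widest range, -1.09 to 1.73, is that of other target genes.

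Position along the chromosome was not used to choose the genes. The 5 tested neighbours on each side of CCL2 had a median log2 fold change of -0.12, with 2 higher, 4 lower and a range from -0.57 to 1.62; the nearest on either side started 706 and 1327 kb away. Those of RELB had a median of -0.06, with 4 higher and 3 lower, among them APOC1 at 1.05 and MARK4 at 0.93, both named after their values were seen. Those of NFKB2 had a median of -0.08, with 3 higher and 4 lower, and reached 0.52 at most. Over the neighbours of all 10 genes the median was -0.06.

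The genes whose log2 CPM over the 6 libraries ran most like CCL2 were YWHAH, MYBL1 and APLP2, with Pearson's r of 1.00 each. Their log2 fold changes were -0.47, -0.44 and -0.56, so the likeness is one of pattern and not of size. Of 12347 genes considered, 374 had an r above 0.99 with CCL2. For RELB they were MZF1, RILP and RAB11FIP3, with log2 fold changes of 0.44, 0.79 and 0.23, and 56 genes had an r above 0.99. With 2 groups of 3 libraries, such values mainly repeat the difference between the groups.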

How the data were processed

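RNA-seq libraries from total RNA, 3 per group, were analysed, with groups and replicate numbers taken from the titles. The deposited table gives raw counts and FPKM values per gene and library, per the file headers. It also has the authors' p-value and log2 fold change between the groups; their test is not named. Tools listed in the submitters' processing notes, without roles, are StringTie 2.2.1, HISAT2 2.0.4 and DESeq2 1.38.3, with the build GRCh38. No source used here states the counter, annotation, strand setting or row filter, and the smallest row sum was 194, the sum of CCL2. Counts were fitted with edgeR 4.0.16 (R 4.3.3) by its quasi-likelihood F test after TMM scaling and filterByExpr, which removed 0 rows, with Benjamini-Hochberg adjustment over 14034 rows and a threshold of 0.05. The SE is the absolute log2 fold change over the square root of F, and 95% intervals use the fit's degrees of freedom. FPKM values were not tested. The code was tested on simulated data. Positions and UTRs are from GENCODE 29 (GRCh38; 12420 rows matched and 1614 rows carry no gene name), and the microRNA and promoters from RefSeq. Between libraries, counts differed by more than sampling noise.

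The members and lists were chosen with earlier results of these data known. Named are all 10 genes, the 4 with the smallest adjusted p in each of 5 lists, and the 3 named genes with a mean of at least 1 CPM most like CCL2 and like RELB by Pearson's r of log2(CPM + 0.5); others are marked, and 1 gene that the rule names is not reported here. Alternatives were DESeq2 1.42.0, limma-voom (limma 3.58.1), RLE, upper-quartile and total-count scaling, no filter, a filter at 1 CPM, the replicate block and leaving out each library.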

Additional observations from a re-analysis of the deposited data

How the results depend on the processing

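Under all 14 alternatives RELB, NFKB2 and CCL2 kept their direction, with log2 fold changes from 1.03 to 1.20, from 0.83 to 0.91 and from -3.33 to -3.12. The settings with no filter and with the filter at 1 CPM repeated the main fit exactly, so they add no check. Gene by gene, the alternatives were followed only for the 10 genes and for the genes picked by smallest adjusted p in the pathway lists. Among these, calls changed only for RELA without control library 3 and for ICAM1 without miR-885-5p library 1. The uncalled values of REL and BIRC3 turned sign in 1 alternative each, and all these changes are given above. For the other genes named here, among them CHUK, LTBR, CXCL8, CD14, CSF1R, APOC1 and MARK4, single calls were not followed. Leaving out 1 library at a time moved the count of the 10 genes that were lower, CCL2 included, between 1 and 3, that of receptors higher between 1 and 3 and lower between 5 and 8, and that of chemokines higher between 1 and 2. Total-count scaling gave 8 other inhibitors higher in place of 5, 9 adaptors, kinases and ubiquitin ligases in place of 6, and 12 other targets in place of 9. Over all rows it gave 4357 higher in place of 3697 and 3134 lower in place of 3726, with a median log2 fold change of 0.05. With the replicate block 1 receptor was higher in place of 2, and no call among the 7 genes chosen by place changed; deviations of libraries with the same number correlated at -0.14, -0.07 and -0.16, so the numbers were not taken as pairs. The cause of these moves was not tested. The neighbours' median was -0.07 with 3 and -0.04 with 10 genes on each side. CCL2 rests on 6 to 65 counts per library, which limits the precision of its fold change; all counts are of technical replicates.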
